A study of Chlamydomonas reinhardtii with 6 samples.

Results

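A set of 10 genes for heat shock proteins and chaperones was followed in the green alga Chlamydomonas reinhardtii grown with a control or an excess supply of manganese. They were chosen by gene identifier, by a rule that uses no measured value but was written when earlier results of these data were known, and are 10 of the 17741 gene models in the deposited table. The cultures were strain CC-4532 in acetate-containing TAP medium with either 6 µM manganese, the control, or 1000 µM manganese, the excess, with 3 flasks per group. All 6 cultures were inoculated from a starter culture, kept in continuous light at 24 °C and harvested in mid-logarithmic growth at 3000000 cells per mL, so both groups share the strain, the medium and the inoculum, and the replicates measure the spread between such flasks. Poly-A RNA was sequenced, and levels are given as FPKM, which corrects fragment counts for transcript length and for the size of the library, so that levels can be set side by side between genes. The table carries identifiers and no gene names, so the names used here rest on the list of identifiers and were not checked by sequence.

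Chaperones bind proteins that are unfolded, newly made or damaged, and either hold them in solution or use ATP to refold them. HSP70 and HSP90 proteins are ATP-driven folding machines, small heat shock proteins bind unfolding proteins without ATP, and ClpB proteins pull aggregates apart. In Chlamydomonas the cytosol, the chloroplast and the endoplasmic reticulum each have members of their own, and the transcription factor HSF1 is known to drive many of their genes when cells meet heat or other stress.

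None of the 10 genes differed detectably between the manganese levels. For every one of them the 3 values at 6 µM and the 3 values at 1000 µM overlapped, while 8.04% of the 12543 tested genes had groups that did not overlap. A gene was tested when it averaged 1 FPKM or more over the 6 libraries. Of the 10 genes, 9 reached that mean and were tested, and HSP22A, at a mean of 0.908 FPKM, did not. With limma's moderated test and Benjamini-Hochberg adjustment over all tested genes, 0 of the 9 passed an adjusted p of 0.05, as did 0% of all tested genes, and the adjusted p was 1.000 for each of the 9. At an unadjusted p under 0.05 there were 0 of the 9, beside 2.82% of all tested genes. The difference of log2(FPKM + 1), 1000 µM minus 6 µM, was below 0 for 6 of the 9 and above 0 for 3, and below 0 for 46.3% of all tested genes. That count rests on single libraries: it was 9 of 9 below 0 with 1000 µM replicate 3 left out and 3 of 9 with 6 µM replicate 2 left out. The median difference of log2(FPKM + 1) was -0.059 over the 9 and 0.011 over all tested genes. Most tested genes are lower than the members, 8 of which averaged 40 FPKM or more. Over the 1466 tested genes of that level the median was 0.080. With a minimum mean of 5 FPKM, 5 of 8 tested members and 38.2% of tested genes were below 0. No member was listed at 0 in any library.

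**Figure D1:**
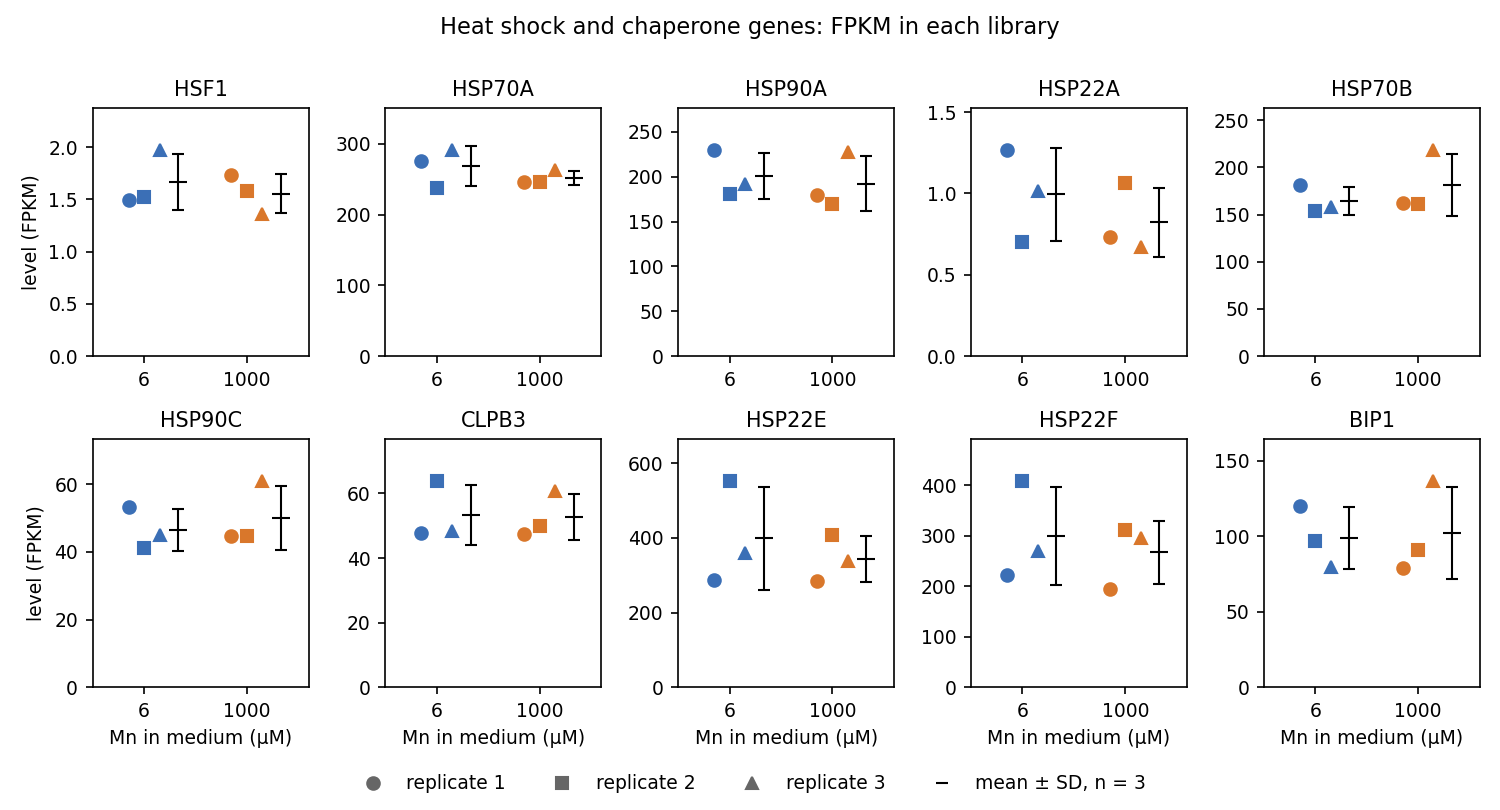
Level in FPKM (vertical axis, linear and starting at 0, scaled for each gene) against the manganese in the medium, for each of the 10 genes; symbols mark replicates 1, 2 and 3, and the bar gives the mean ± SD (n = 3). In every panel the 6 µM and 1000 µM values overlap, and HSP22E and HSP22F have their highest value in 6 µM replicate 2.

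HSF1 (Cre07.g354250.v5.5; chromosome 7, 5932413 to 5937624 in RefSeq's v5.5 assembly), the heat shock transcription factor, was close to the lower limit of the tested genes. Its level was 1.49, 1.53 and 1.98 FPKM in 6 µM replicates 1, 2 and 3 and 1.73, 1.58 and 1.36 FPKM in 1000 µM replicates 1, 2 and 3. The highest value was in 6 µM replicate 3 and the lowest in 1000 µM replicate 3, with the others between them. The means were 1.67 ± 0.269 and 1.56 ± 0.184 FPKM in that order of groups (SD, n = 3 each). The difference of log2(FPKM + 1), 1000 µM minus 6 µM, was -0.059, with a 95% interval from -0.29 to 0.17. Converted to FPKM at the 6 µM level, this is a change of -6.41%, with an interval from -28.9% to 19.9%. Both signs are inside it, and without 6 µM replicate 3 the log2 difference was 0.023.

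Among the cytosolic chaperones, HSP70A (Cre08.g372100.v5.5; chromosome 8, 2518227 to 2522077), the HSP70 of the cytosol, was the steadiest of the 10 genes over the 6 libraries. Its level was 277, 237 and 292 FPKM in 6 µM replicates 1, 2 and 3 and 246, 247 and 264 FPKM in 1000 µM replicates 1, 2 and 3. The 1000 µM values all lay inside the range of the 6 µM values, and the highest of the 6 was 1.23 times the lowest. The means were 269 ± 28.4 FPKM and 252 ± 10.1 FPKM (SD, n = 3 each), a change of -5.84% with a 95% interval from -21.9% to 13.4%. Its log2 difference was -0.086 (SE 0.12).

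HSP90A (Cre09.g386750.v5.5; chromosome 9, 264243 to 268808), the HSP90 of the cytosol, which helps client proteins such as kinases reach their mature fold, stood at 230.4, 181 and 191 FPKM at 6 µM. It stood at 180.2, 169.8 and 227 FPKM in 1000 µM replicates 1, 2 and 3. The high values were 1 library of each group, 6 µM replicate 1 and 1000 µM replicate 3, and the other 4 lay between 169.8 and 191 FPKM. The means were 201 ± 26.0 and 192 ± 30.6 FPKM (SD, n = 3 each), a change of -4.53% with an interval from -24.8% to 21.1%. Its log2 difference was -0.067 (SE 0.15), which became 0.035 without 6 µM replicate 1 and 0.017 without 1000 µM replicate 2.

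HSP22A (Cre07.g318800.v5.5; chromosome 7, 893237 to 894946), a small heat shock protein, was the only member with a mean under 1 FPKM. Its level was 1.27, 0.699 and 1.01 FPKM in 6 µM replicates 1, 2 and 3 and 0.733, 1.06 and 0.668 FPKM in 1000 µM replicates 1, 2 and 3. Of the 6 values 3 were under 1 FPKM, 1 at 6 µM and 2 at 1000 µM. The means were 0.994 ± 0.286 and 0.822 ± 0.212 FPKM (SD, n = 3 each). In a fit without the filter on low values its log2(FPKM + 1) difference was -0.13, with an interval from -0.42 to 0.17 and a limma adjusted p of 1.000. In FPKM this interval reaches from -51.0% to 24.8%. The depth behind these low values is unknown, since FPKM does not keep it.

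The chloroplast chaperones included the most abundant and the most variable members. HSP70B (Cre06.g250100.v5.5; chromosome 6, 135260 to 140425), the HSP70 of the stroma, known for its part in the repair of photosystem II, stood at 181, 153 and 158 FPKM in 6 µM replicates 1, 2 and 3. At 1000 µM it stood at 162, 162 and 219 FPKM. The value in 1000 µM replicate 3 was above all others, and the other 5 lay between 153 and 181 FPKM. The means were 164 ± 14.7 and 181 ± 32.9 FPKM (SD, n = 3 each), a change of 9.40% with an interval from -13.5% to 38.3%. Its log2 difference was 0.13 (SE 0.15), and without 1000 µM replicate 3 it was -0.015.

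HSP90C (Cre12.g514850.v5.5; chromosome 12, 3726829 to 3732140), the HSP90 of the chloroplast, works with HSP70B. Its level was 53.4, 41.0 and 44.9 FPKM at 6 µM and 44.6, 44.7 and 61.0 FPKM at 1000 µM, in replicates 1, 2 and 3. As for HSP70B, 1000 µM replicate 3 was the highest library and 6 µM replicate 1 the next. The means were 46.4 ± 6.32 and 50.1 ± 9.46 FPKM (SD, n = 3 each), a change of 7.29% with an interval from -16.8% to 38.1%. Its log2 difference was 0.099 (SE 0.16), and without 1000 µM replicate 3 it was -0.048.

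CLPB3 (Cre02.g090850.v5.5; chromosome 2, 2340618 to 2348785), the disaggregase of the chloroplast, stood at 47.6, 63.9 and 48.5 FPKM in 6 µM replicates 1, 2 and 3. It stood at 47.5, 50.0 and 60.9 FPKM at 1000 µM. Each group had 1 high library, and the other 4 values lay between 47.5 and 50.0 FPKM. The means were 53.3 ± 9.17 and 52.8 ± 7.11 FPKM (SD, n = 3 each), the closest of the 10 genes in relative terms, with a change of -0.690% and an interval from -22.2% to 26.6%. Its log2 difference was -0.0098 (SE 0.15), which became 0.13 without 6 µM replicate 2. Leaving out replicate 1 or 2 of the 1000 µM group gave 0.061 and 0.025.

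HSP22E and HSP22F, the small heat shock proteins of the chloroplast, lie next to each other on chromosome 14, from 1398588 to 1400061 (Cre14.g617450.v5.5) and from 1396617 to 1398388 (Cre14.g617400.v5.5), with 199 bases between the gene models. HSP22E stood at 286, 553 and 359 FPKM in 6 µM replicates 1, 2 and 3 and at 285, 409 and 339 FPKM in 1000 µM replicates 1, 2 and 3. HSP22F stood at 221, 408 and 270.2 FPKM at 6 µM and at 195, 310.2 and 296 FPKM at 1000 µM. Both genes were highest in 6 µM replicate 2, and both had their lowest 2 values in replicate 1 of either group. Within the 6 µM group alone the highest HSP22E value was 1.93 times the lowest, and the highest HSP22F value 1.85 times the lowest. The means of HSP22E were 399 ± 138 and 344 ± 61.8 FPKM, and those of HSP22F 300.0 ± 97.1 and 267 ± 63.0 FPKM (SD, n = 3 each). The log2 difference of HSP22E was -0.17, with an interval from -0.72 to 0.38, and that of HSP22F -0.15, with an interval from -0.73 to 0.43. In FPKM the interval of HSP22E runs from -39.5% to 29.8% and that of HSP22F from -39.7% to 34.5%. Both directions rest on single libraries: without 6 µM replicate 2 the log2 difference was 0.089 for HSP22E and 0.096 for HSP22F, and without 1000 µM replicate 1 that of HSP22F was 0.062. The sequences of such relatives can share reads, and the labels do not say how the authors' counting divided them, so the split between these neighbours is uncertain. HSP22E was above HSP22F in each of the 6 libraries, by 1.15 to 1.47 times.

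BIP1 (Cre02.g080700.v5.5; chromosome 2, 1049846 to 1055344), the HSP70 of the endoplasmic reticulum, which folds secreted and membrane proteins, stood at 119.9, 96.8 and 79.3 FPKM in 6 µM replicates 1, 2 and 3. It stood at 79.0, 90.6 and 137 FPKM in 1000 µM replicates 1, 2 and 3. The highest library was again 1000 µM replicate 3 and the next 6 µM replicate 1, with the other 4 between 79.0 and 96.8 FPKM. The means were 98.7 ± 20.4 and 102 ± 30.5 FPKM (SD, n = 3 each), a change of 2.05% with an interval from -28.6% to 45.7%. Its log2 difference was 0.029 (SE 0.22). The sign turned in 6 of 18 alternative settings, with -0.20 when 1000 µM replicate 3 was left out and -0.12 when 6 µM replicate 3 was.

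**Figure D2:**
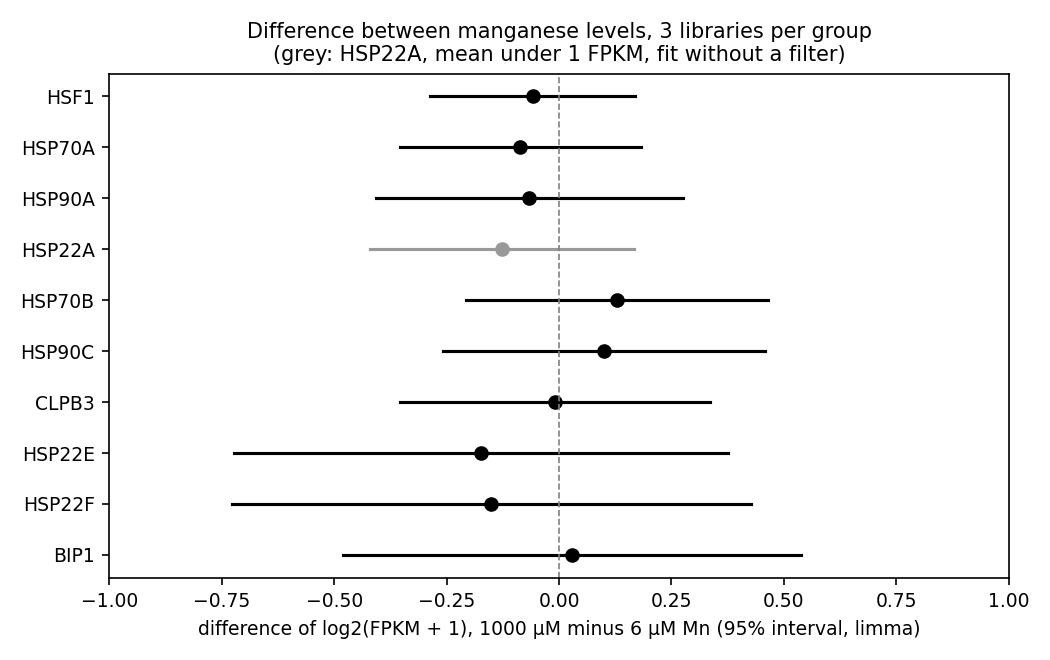
Difference of log2(FPKM + 1) between 1000 and 6 µM manganese (horizontal axis) for each gene, with points for the estimate and lines for its 95% interval from limma, 3 libraries per group. Every line crosses 0, and those of HSP22E, HSP22F and BIP1 are the longest; HSP22A, in grey, comes from the fit without a filter on low values.

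The intervals give the range of changes that the fit to all 6 libraries with equal weights allows for. They hold for that fit only, and the estimates moved with other settings. For 7 of the 9 tested members the whole interval was narrower than a 1.5-fold change of FPKM up or down, as for 81.4% of all tested genes. The exceptions were HSP22E and HSP22F, whose lower ends fell past it. All 9 intervals lay inside a 2-fold change, beside 97.8% of tested genes. The interval of HSP22A reached slightly past a 2-fold fall. An exact two-sided permutation test of each gene on its own gave p from 0.4 to 1, where 3 against 3 libraries cannot go below 0.1.

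In level, the 10 genes spanned a wide range and the group means had the same order at 6 µM and at 1000 µM. Over the 6 libraries the means in FPKM ran from HSP22E at 372, HSP22F at 283, HSP70A at 260.4, HSP90A at 197, HSP70B at 173, BIP1 at 100.4, CLPB3 at 53.1 and HSP90C at 48.3 down to HSF1 at 1.61 and HSP22A at 0.908. Neighbours whose ranges overlapped were HSP22E with HSP22F, HSP22F with HSP70A, HSP90A with HSP70B and CLPB3 with HSP90C. HSP22F exceeded HSP70A in 3 of 6 libraries and CLPB3 exceeded HSP90C in 4 of 6, so neither order is fixed by these data. HSP90A, by contrast, was above HSP70B in 6 of 6 libraries. For the 5 other neighbouring steps the ranges of the 6 values did not overlap. HSP22E ranked 257 of the 17741 genes by mean FPKM, HSP70A 335 and BIP1 674, whereas HSF1 ranked 11315 and HSP22A 12733. The chloroplast small heat shock protein HSP22E was thus 225 to 791 times the level of HSP22A within the same library.

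The members differed in how far replicate cultures of 1 manganese level lay apart. The SD within groups, on the log2(FPKM + 1) scale, was 0.41 for HSP22F, 0.39 for HSP22E and 0.36 for BIP1, more than that of 96.2%, 94.95% and 93.2% of the 1466 tested genes that averaged 40 FPKM or more. It was 0.20 to 0.22 for HSP90A, HSP70B, HSP90C and CLPB3, above 61.7% to 70.7% of those genes. For HSP70A it was 0.12, above 29.1% of them. The median over those 1466 genes was 0.16.

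**Figure D3:**
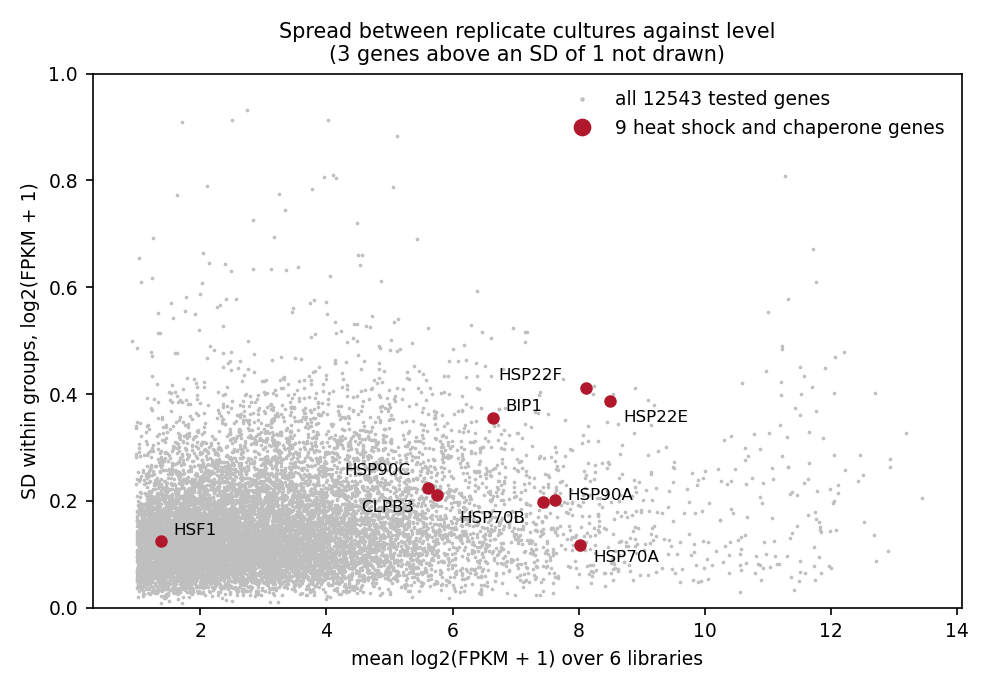
SD of log2(FPKM + 1) within the manganese groups (vertical axis) against the mean log2(FPKM + 1) over 6 libraries (horizontal axis), with the tested genes in grey, apart from 3 with an SD above 1 that are not drawn, and the 9 tested members in red. HSP22E, HSP22F and BIP1 lie high for their level. HSP70A lies below the median of the tested genes averaging 40 FPKM or more, though above 29.1% of them.

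The members fell into different patterns across the libraries, and in none of them did the 6 µM and 1000 µM libraries separate. Likeness was measured as the root mean square difference between the profiles of log2(FPKM + 1), each centred on the gene's mean over the 6 libraries. This difference counts the size of the deviations as well as their shape, so profiles of like shape but unlike size lie apart. The closest profiles were those of the stromal partners HSP70B and HSP90C, at 0.043. HSP90A lay closest to HSP90C, at 0.091, and so did BIP1, at 0.16. HSP22E and HSP22F were closest to each other, at 0.10, and farthest from BIP1, at 0.46, and from HSP90C, at 0.43, respectively. Because HSP22E and HSP22F can share reads, how far their likeness reflects separate transcripts is uncertain and was not tested. By this measure CLPB3 had no near partner: its closest were HSP70B at 0.21 and HSP90A and HSP22F, both at 0.23. CLPB3 was high in 6 µM replicate 2, as HSP22E and HSP22F were, and in 1000 µM replicate 3, as HSP70B was. Its lowest value was in 1000 µM replicate 1, as for HSP22E, HSP22F and BIP1. HSF1 and HSP70A were closest to each other, at 0.12, and both peaked in 6 µM replicate 3. In 6 µM replicate 1, however, they lay on opposite sides of their means, at -0.06 for HSF1 and 0.09 for HSP70A. The same held in 1000 µM replicate 1, at 0.07 and -0.08, and in 1000 µM replicate 3, at -0.14 and 0.02. At the low level of HSF1, adding 1 FPKM also shrinks its deviations.

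**Figure D4:**
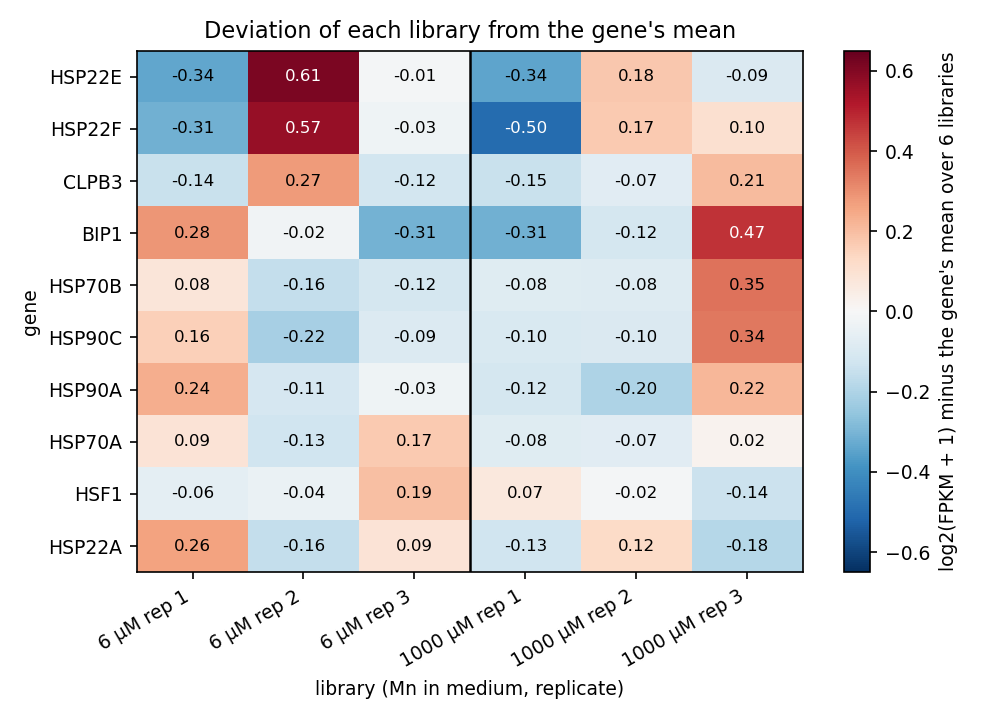
Deviation of each library from the gene's mean over 6 libraries, in log2(FPKM + 1), with genes in rows and libraries in columns; red is above and blue below the mean, and the vertical line separates 6 µM from 1000 µM manganese. HSP22E and HSP22F are high in 6 µM replicate 2 (0.61 and 0.57), and BIP1, HSP70B and HSP90C are high in 1000 µM replicate 3 (0.47, 0.35 and 0.34).

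The libraries 6 µM replicate 1 and 1000 µM replicate 3 stand apart from the other 4 over the whole transcriptome, and they were the highest 2 libraries for HSP90A, HSP70B, HSP90C and BIP1. That holds for 4 of the 9 tested members and for 24.5% of all tested genes. HSF1 was lowest in these libraries, as were 21.4% of tested genes. With both left out, the log2 differences were -0.090 for HSP90A, 0.056 for HSP70B, 0.055 for HSP90C and -0.050 for BIP1. Those of HSP22E and HSP22F were then -0.38 and -0.43, and that of CLPB3 -0.19. None passed (limma adjusted p from 0.928 to 0.995 over the 10 genes, each group then having 2 libraries). The part of whatever sets these libraries apart in the members' levels was not tested, and in RNA from a whole culture, more transcript in every cell and more cells with the transcript cannot be told apart.

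Ratios within a library do not change when all its values are multiplied by a single factor, though quantile normalization can change them. From the 9 tested members 36 could be formed. In 3 of them the manganese groups did not overlap, and all 3 set a cytosolic chaperone over a chloroplast one. HSP90A was 4.31, 4.41 and 4.26 times HSP90C in 6 µM replicates 1, 2 and 3 and 4.04, 3.80 and 3.72 times at 1000 µM. It was 1.27, 1.18 and 1.21 times HSP70B at 6 µM and 1.11, 1.05 and 1.04 times at 1000 µM. HSP70A was 1.53, 1.55 and 1.85 times HSP70B at 6 µM and 1.52, 1.53 and 1.21 times at 1000 µM, where the groups were separated by only a narrow gap. The mean ratio of HSP90A to HSP90C was 4.33 ± 0.0759 at 6 µM against 3.86 ± 0.166 at 1000 µM (SD, n = 3 each), while HSP90A alone varied 1.36-fold over the 6 libraries and HSP90C 1.49-fold. The other ratios of HSP70A or HSP90A to a chloroplast member overlapped between the groups. They were HSP70A over HSP90C, at 4.32 to 6.51, and HSP70A and HSP90A over each of CLPB3, HSP22E and HSP22F. The 3 ratios that did not overlap are not independent of each other, since they share HSP90A and HSP70B. These 3 were picked out after their values were seen and carry no test. For comparison, groups did not overlap in 4.11% of the ratios of a tested gene to HSP90C and in 6.58% of those to HSP70B. Such shares were not computed for other denominators. Among single tested genes 8.04% had groups that did not overlap, a share near that of 3 in 36.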

How the data were processed

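FPKM values of 17741 gene models were deposited by the authors, with 1 column per library. Per the submitters' processing notes, the tools were Cuffdiff 2.2.1, STAR and CASAVA. Their settings, the alignment build, strand and filters were not given in the sources used here. Columns were assigned by the manganese level and replicate number in each title. The depth is unknown. Gene positions come from RefSeq's v5.5 gene table, to which 17738 of 17741 identifiers matched, all 10 members among them.

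Values were tested as log2(FPKM + 1), which understates changes of low genes, for genes averaging 1 FPKM or more, with limma 3.58.1 in R 4.3.3 (eBayes with trend, two-sided, Benjamini-Hochberg over 12543 genes). The test was tried on simulated data with independent noise for each gene and library. Those data did not carry the libraries that stand apart, so they do not show how the test behaves with them. Percent changes convert the log2 differences to FPKM at the 6 µM level. Figures used matplotlib 3.10.9. The 10 members are named whatever their values; members and lists were chosen by identifier, with earlier results of these data known. Relatives by protein sequence, annotated chaperones and promoter motifs were not analysed here. The alternatives were 18 settings of pseudocount, filter, scaling, model and libraries left out. The replicate numbers mark no shared source in the labels.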

Additional observations from a re-analysis of the deposited data

How the results depend on the processing

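No member passed a limma adjusted p of 0.05 in any of the 18 alternatives, and the smallest adjusted p of any member was 0.473, for HSP22F with library quality weights. Over all tested genes the count at that threshold was 0 in 13 alternatives, 2 with the same FPKM total per library, 26 with library quality weights and 3 without both 6 µM replicate 1 and 1000 µM replicate 3. It was 0 to 2 with single libraries left out, namely 2 without 6 µM replicate 1 and 1 without 1000 µM replicate 3. With quality weights 1 member, HSP22F, had an unadjusted p under 0.05, as did 1272 of all tested genes, and the log2 differences of HSP22F and HSP22E were -0.48 and -0.37, against -0.15 and -0.17 with equal weights.

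Since the differences are small beside their errors, their signs depended on the setting, except that HSP70A stayed below 0 in all 18. BIP1 changed sign with the same FPKM total (-0.058), quantile normalization (-0.045), quality weights (-0.15) and without both libraries that stand apart (-0.050), as did HSP90C with quality weights (-0.0076) and HSP22A without both libraries (0.032). With single libraries left out, the log2 difference lay between -0.11 and 0.023 for HSF1, -0.19 and 0.035 for HSP90A, -0.015 and 0.20 for HSP70B, and -0.048 and 0.20 for HSP90C. It lay between -0.11 and 0.13 for CLPB3, -0.39 and 0.089 for HSP22E, -0.34 and 0.096 for HSP22F, -0.20 and 0.19 for BIP1, -0.17 and -0.023 for HSP70A, and -0.24 and -0.028 for HSP22A. HSP22A, the lowest gene, was at -0.24 with a pseudocount of 0.1 and at -0.042 with 5. Of the 9 tested members, 3 to 9 were below 0 with single libraries left out. With the same FPKM total 7 were, but so were 72.1% of all tested genes. What moved these values was not tested.

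Same-numbered libraries deviated from their group means with correlations of -0.396, 0.513 and -0.503 across genes, and the fit therefore does not pair them. With a replicate block 0 members and 0 of all tested genes passed the adjusted threshold, and 306 genes had an unadjusted p under 0.05. The unknown depth limits what can be said of HSP22A and HSF1.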

Other observations

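The 10 genes together held 0.225%, 0.241% and 0.212% of the summed FPKM in 6 µM replicates 1, 2 and 3 and 0.177%, 0.193% and 0.233% in 1000 µM replicates 1, 2 and 3, with overlapping groups. HSP22E and HSP22F made up 35.8% to 55.3% of that sum, most in 6 µM replicate 2.

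The level of HSP22E and HSP22F was not shared by the genes on either side of them on chromosome 14. The gene model before HSP22F, 6 bases away, averaged 16.9 FPKM (6 µM) and 17.7 FPKM (1000 µM), and the one after HSP22E, 1 base away, averaged 10.03 and 10.9 FPKM. The gene model after HSP22A on chromosome 7, 91 bases away, averaged 0.555 and 0.418 FPKM, below HSP22A at 0.994 and 0.822 FPKM, whereas the one before it, 702 bases away, averaged 62.4 and 67.2 FPKM.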
